A study of Homo sapiens with 8 samples.

Results

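The replisome is the set of proteins that copies chromosomal DNA, and the 41 genes described here encode its core: the subunits that mark origins, load and switch on the helicase, synthesise DNA, hold the polymerases on the template and seal the new strands. They were taken from a fixed list of names with no measured value used, though earlier results of these data were known when it was made. They are 41 of the 20090 measured protein-coding genes, which lie on the autosomes and the X chromosome. A gene's level is the summed normalized tag count of every peak that lay no more than 1000 bp from one of its transcription start sites (TSS). A normalized tag count is the number of sequenced tags in a peak per 10000000 tags of the library.

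The data come from HCT8 cells, a human ileocecal colorectal adenocarcinoma line, that were co-cultured for 5 h with membrane vesicles (MVs) shed by *E. coli* MC1061 or by *V. cholerae* C6706, or left without vesicles (mock). The labels call the mock cells control or non treated, and the paper's methods give the control as Tris-HCl, in which the vesicles were suspended. H3K4me3, trimethylation of lysine 4 on histone H3 at active promoters, was measured by ChIP sequencing, and nucleosome-free DNA was measured by formaldehyde-assisted isolation of regulatory elements (FAIRE) sequencing. The series has 8 samples, of which 6 libraries, 1 per treatment and assay, gave the peak lists used, and 2 more are inputs without peak lists here. There were no replicates, so the treatments could not be tested against each other, and every interval given is a 95% interval for counting error only.

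At a replication origin the origin recognition complex (ORC), CDC6 and CDT1 load a ring of MCM2 to MCM7, which CDC45 and GINS later turn into the active helicase. Primase and DNA polymerase alpha then lay the primers. DNA polymerases delta and epsilon extend these, held by the sliding clamp PCNA, while RPA covers exposed single strands. Many of these genes are transcribed at the entry into S phase under E2F transcription factors, which makes their promoters a familiar example of cell-cycle control.

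The H3K4me3 libraries held 3463875 (mock), 10528314 (*E. coli* MVs) and 13011839 (*V. cholerae* MVs) tags, of which 38.6%, 53.9% and 56.1% lay in called peaks. The shallowest library, mock, is thus also the one with the lowest share of tags in peaks, and the part of this in the ratios below was not tested. All 10 markers of gut epithelium examined had an H3K4me3 peak in each library. Of 6 blood markers 1 (CD14) had a peak in each, and of 8 markers of other cell types 0, 2 and 2 had one. The libraries cannot show how cells of a culture differ, and a smaller share of marked cells cannot be told apart from less mark per cell.

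The promoters of the members that stood at either end of the H3K4me3 ratio of *V. cholerae* MVs over mock are printed first, so that the sequences can be read beside the values. Each runs from 250 bases before the start site of the gene's representative transcript to 30 bases from it on, 5′ to 3′ on the strand of the gene, from the GRCh37 reference genome, and all 4 genes lie on the minus strand. Capitals mark matches, on either strand, to the E2F words TTTCCCGC, TTTGGCGC, TTTGCCGC and TTTCGCGC and to CCAAT, the word bound by NF-Y, and these words were chosen after the ratios were known. POLE (chr12:133263899-133264178) and GINS2 (chr16:85722531-85722810) had the highest ratios, and MCM3 (chr6:52149511-52149790) and ORC1 (chr1:52870066-52870345) had the lowest.
POLE: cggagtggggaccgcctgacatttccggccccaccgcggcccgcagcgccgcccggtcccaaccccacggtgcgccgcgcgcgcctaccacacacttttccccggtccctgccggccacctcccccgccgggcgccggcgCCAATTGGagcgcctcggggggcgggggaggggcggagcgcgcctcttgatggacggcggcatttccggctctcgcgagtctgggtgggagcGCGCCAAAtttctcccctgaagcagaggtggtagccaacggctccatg
GINS2: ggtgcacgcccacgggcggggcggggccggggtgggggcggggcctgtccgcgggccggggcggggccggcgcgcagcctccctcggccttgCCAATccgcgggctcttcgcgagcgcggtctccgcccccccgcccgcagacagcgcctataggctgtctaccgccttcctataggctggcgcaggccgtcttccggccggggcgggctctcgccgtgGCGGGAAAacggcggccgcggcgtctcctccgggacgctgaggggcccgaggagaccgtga
MCM3: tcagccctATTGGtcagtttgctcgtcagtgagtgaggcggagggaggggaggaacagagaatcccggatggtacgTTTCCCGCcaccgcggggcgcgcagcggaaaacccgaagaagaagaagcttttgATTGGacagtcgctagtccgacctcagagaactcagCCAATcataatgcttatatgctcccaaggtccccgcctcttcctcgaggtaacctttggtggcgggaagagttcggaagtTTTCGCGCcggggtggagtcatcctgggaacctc
ORC1: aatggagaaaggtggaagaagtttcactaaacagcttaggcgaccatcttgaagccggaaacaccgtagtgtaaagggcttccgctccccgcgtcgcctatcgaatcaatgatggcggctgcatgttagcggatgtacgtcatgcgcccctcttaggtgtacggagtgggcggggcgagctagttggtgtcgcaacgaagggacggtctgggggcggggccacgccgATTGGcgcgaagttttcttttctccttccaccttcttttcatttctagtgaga

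In the printed promoters an E2F word was found at both ends of the ratio, and so few promoters say nothing of the other members. MCM3 holds 2 such words, at positions -174 and -4 counted from the start site at 0, and 3 CCAAT words. POLE holds 1, at -18, and its capital run further upstream is a pair of CCAAT matches, 1 on each strand, that overlap. GINS2 holds 1 E2F word at -31 and ORC1 holds none of the exact words searched for, its single capital word being CCAAT on the other strand. The GC content of the mock peaks was 72.3% at POLE, 62.7% at GINS2, 45.4% at MCM3 and 44.8% at ORC1. These genes were chosen by a ratio that followed GC content across the members (below), so these values are not independent of the choice.

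All 41 members had an H3K4me3 peak in each of the 3 libraries, where 60.4% (mock), 64.3% (*E. coli* MVs) and 65.2% (*V. cholerae* MVs) of all genes had one. Their median level was 389.7 without vesicles, 490.1 with *E. coli* MVs and 467.3 after *V. cholerae* MVs. Over the 12070 genes with a peak in all 3 libraries, the medians were 308.9, 454.0 and 488.0. The replication genes thus began above the median of all genes in mock and ended below it with *V. cholerae* MVs.

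**Figure D1:**
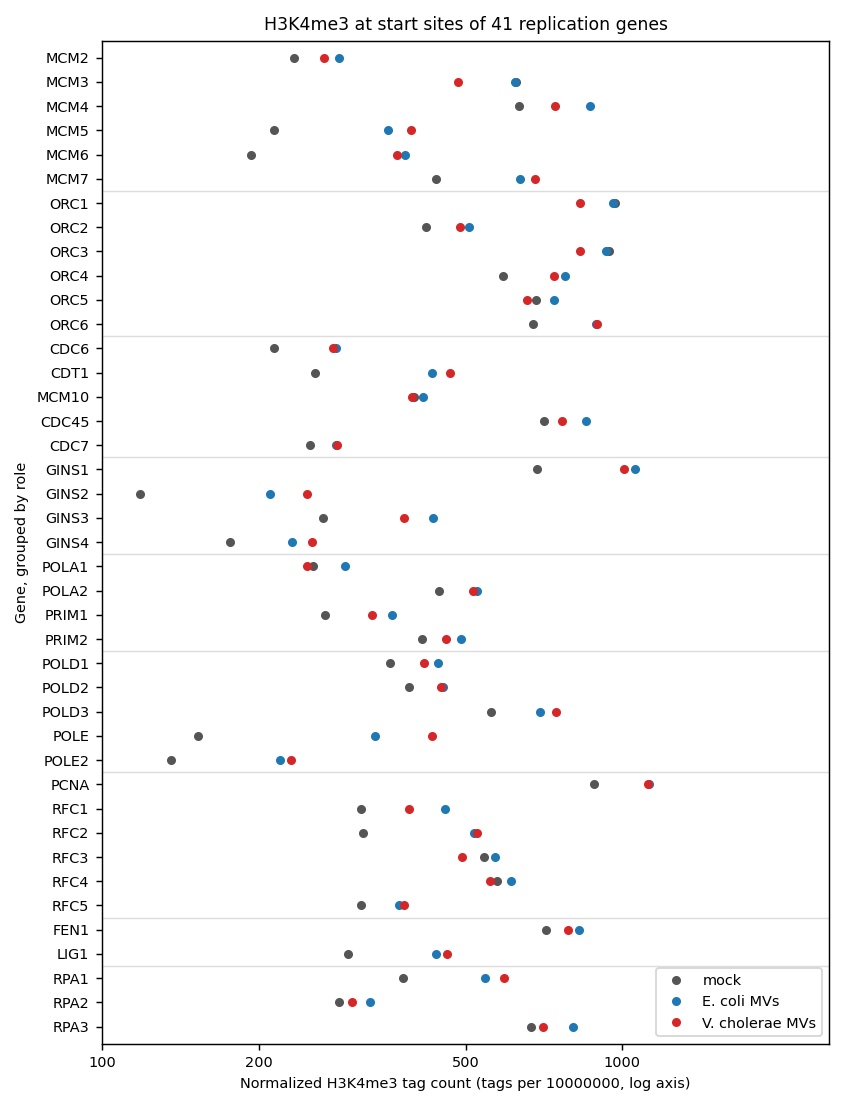
Normalized H3K4me3 tag count (tags per 10000000, log axis) of each of the 41 genes, 1 point per library, with grey lines between role groups. The MV points lie to the right of the mock point for most genes, most widely at POLE, GINS2 and MCM6, and the *V. cholerae* point lies to the left of it at 8, by more than counting error at MCM3, ORC1 and ORC3.

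The median log2 ratio of the members over mock was 0.31 with *E. coli* MVs, against 0.52 over all genes, and 0.27 with *V. cholerae* MVs, against 0.64. With *E. coli* MVs 9 of 41 members were at least 1.5-fold higher than mock, where 42.6% of all genes were. With *V. cholerae* MVs 10 of 41 were, where 53.5% of all genes were. The members' shares, 22.0% and 24.4%, were below those backgrounds. No member was 1.5-fold lower in either comparison, where 0.356% and 0.572% of all genes were.

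Counted by the 95% interval in place of the fold, 25 members exceeded mock by more than their counting error after *E. coli* MVs (74.8% of all genes) and none lay below (0.273%). With *V. cholerae* MVs 20 lay above (75.7%) and 3 lay below (1.91%), and these 3 were MCM3, ORC1 and ORC3. The members' ratios were under the median of all genes for 28 of 41 with *E. coli* MVs and for 33 of 41 after *V. cholerae* MVs. Both comparisons use the same mock library, so they are not independent of each other. When each ratio was taken relative to the median of all genes, the members' medians turned to -0.21 and -0.36, and scaling to the tags in peaks gave -0.17 and -0.27.

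**Figure D2:**
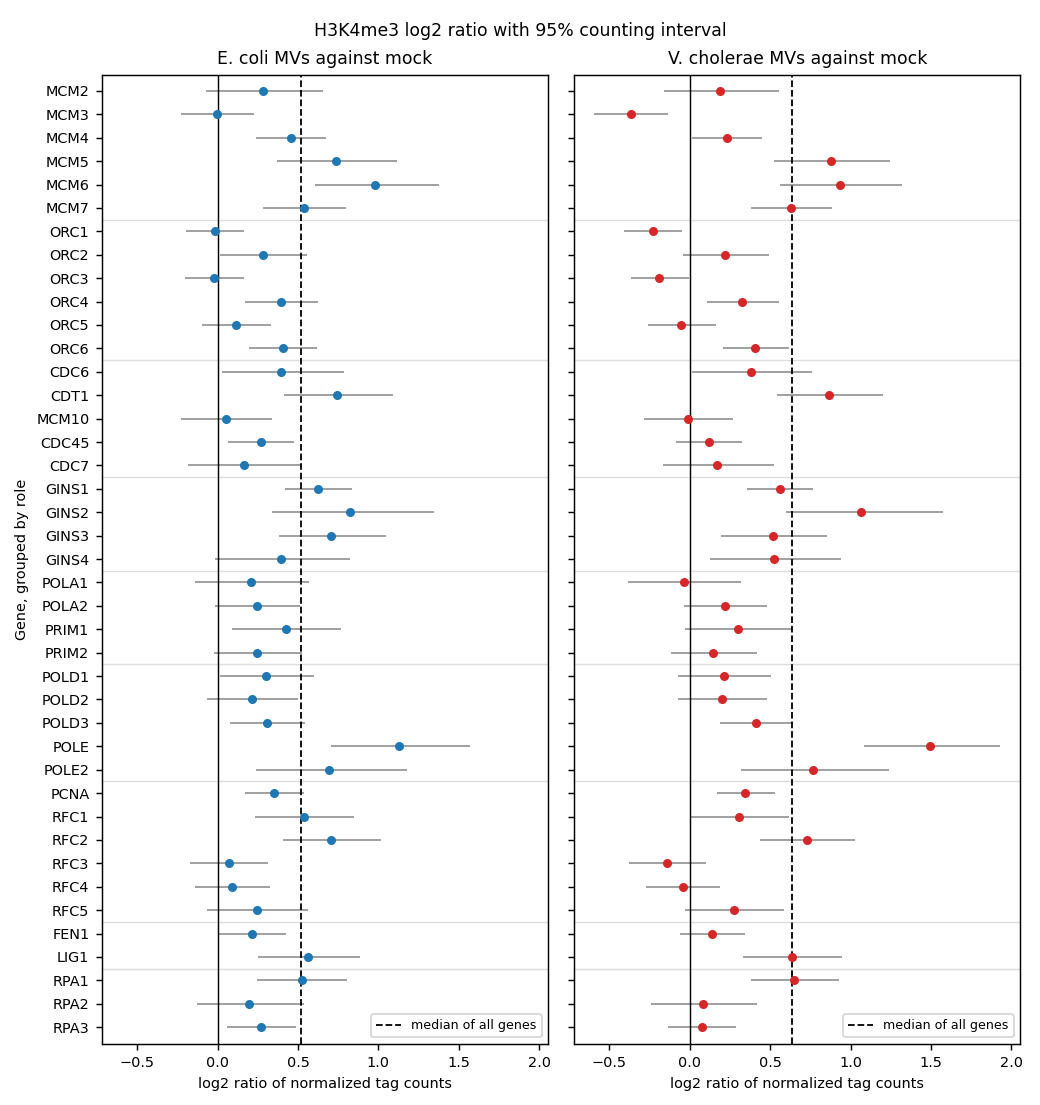
Log2 ratio of the normalized H3K4me3 tag count over mock for each gene, with its 95% counting interval as a bar, for *E. coli* MVs (left) and *V. cholerae* MVs (right). The dashed line is the median of all genes, at 0.52 and 0.64, and most points lie to its left, with POLE farthest to the right in both panels.

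Between the vesicles the members were close. The median log2 ratio of *V. cholerae* MVs over *E. coli* MVs was -0.06, against 0.11 over all genes, and no member differed by 1.5-fold in either direction (4.28% of all genes higher, 0.613% lower). By counting error, 1 member was higher with *V. cholerae* MVs (POLE; 37.3% of all genes) and 11 were lower (9.73%). The range ran from -0.37 at MCM3 to 0.37 at POLE. This comparison uses the 2 deeper libraries and not mock.

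The MCM helicase genes encode the 6 subunits of the ring that unwinds the duplex, and they spread widely. MCM6 stood at 193.4 in mock, 381.8 with *E. coli* MVs and 368.9 after *V. cholerae* MVs. Both MV libraries were higher than mock, by a log2 ratio of 0.98 (interval 0.60 to 1.38) and 0.93 (0.56 to 1.32). MCM5, a neighbour of MCM2 in the ring, stood at 213.6, 355.2 and 392.0, and MCM7 at 438.8, 636.4 and 678.6.

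MCM3 differed from these. It stood at 623.6 in mock, 623.1 with *E. coli* MVs and 483.4 after *V. cholerae* MVs, so that the mock and *E. coli* values were within counting error of each other and the *V. cholerae* value was below both. Its log2 ratio was -0.37 over mock (interval -0.59 to -0.14) and also -0.37 over *E. coli* MVs (-0.53 to -0.21). MCM2 (233.8, 284.9 and 266.7) was not separated from mock by counting error under either vesicle, and MCM4 (632.2, 866.2 and 741.6) was above mock with both. All 6 genes had wider peaks than mock with both vesicles.

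The ORC genes encode the complex that binds origins, and their ratios differed by subunit. Their median was a log2 ratio of 0.20 for *E. coli* MVs, the lowest of the role groups, and 0.08 after *V. cholerae* MVs, and per 1000 bp of called peak the medians were -0.00081 and 0.0021. None of the 6 was 1.5-fold higher, and all 6 were below the median of all genes in both comparisons.

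ORC1, an ATPase subunit whose amount varies through the cell cycle, stood at 970.0 in mock, 959.3 with *E. coli* MVs and 827.7 after *V. cholerae* MVs. It had the highest mock level of the 41 genes, and its *V. cholerae* value was lower than mock by counting error (log2 -0.23, interval -0.41 to -0.05). ORC3 had the same order of libraries at 944.0, 930.8 and 828.5 (*V. cholerae* over mock -0.19, interval -0.37 to -0.01). ORC4, another subunit of the complex, stood at 588.9, 774.1 and 739.3 and was above mock by counting error with both vesicles, at 0.39 (0.17 to 0.62) and 0.33 (0.11 to 0.55). Of the 6 genes, 3 were above mock by counting error with *E. coli* MVs, and 2 were above and 2 below with *V. cholerae* MVs. ORC6, which helps bring the MCM ring to the origin, stood at 672.7, 890.9 and 893.0 and was the highest of the group for *V. cholerae* MVs, at a log2 ratio of 0.41 (0.20 to 0.62).

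Among the licensing and helicase activation factors, CDT1, the loader of the MCM ring, was the one that reached 1.5-fold. It stood at 256.9 in mock, 430.3 with *E. coli* MVs and 467.3 after *V. cholerae* MVs, log2 ratios of 0.74 (0.41 to 1.09) and 0.86 (0.54 to 1.20). MCM10, a factor needed to start unwinding, stood at 398.4, 413.2 and 395.0 and was the lowest of the group, with an interval for *V. cholerae* MVs of -0.29 to 0.27 around -0.01. CDC6, the partner of CDT1 in loading, stood at 213.6, 281.1 and 278.2. CDC7, the kinase that triggers firing, stood at 251.2, 281.1 and 282.8 and was within counting error of mock in both MV libraries.

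The GINS genes encode the 4-part complex that joins the MCM ring and CDC45, and they had the highest median of the role groups for both vesicles, 0.67 with *E. coli* MVs and 0.54 after *V. cholerae* MVs. GINS2 stood at 118.4 in mock, the lowest mock level of all 41 genes, 209.9 with *E. coli* MVs and 248.2 after *V. cholerae* MVs. Its log2 ratios were 0.83 (0.34 to 1.34) and 1.07 (0.60 to 1.57), resting on 41 tags in mock. GINS3, the lowest of the group for *V. cholerae* MVs, stood at 265.6, 433.1 and 379.7, and its log2 ratio there was 0.52 (0.19 to 0.85). GINS1 stood at 684.2, 1055.2 and 1007.6, a sum of 2 peaks. The peak over its representative start site held 401.3, 546.1 and 461.9, and the other, shared with the gene ABHD12 on the opposite strand, held 282.9, 509.1 and 545.7. At the representative peak alone GINS1 was not 1.5-fold higher with *E. coli* MVs (0.44, interval 0.18 to 0.72) and was within counting error of mock with *V. cholerae* MVs (0.20, -0.07 to 0.48).

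The genes of polymerase alpha and primase, which lay the RNA and DNA primer, were close to mock. None reached 1.5-fold, 1 of 4 (PRIM1, the catalytic primase subunit) was above mock by counting error with *E. coli* MVs, and none was after *V. cholerae* MVs. PRIM1 stood at 268.5, 360.0 and 330.5, the highest of the group for *V. cholerae* MVs at log2 0.30 (-0.03 to 0.64). POLA1, the catalytic subunit of polymerase alpha, stood at 254.1, 293.5 and 247.5, the lowest at -0.04 (-0.38 to 0.32).

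The polymerases that extend the primer held the member with the largest ratio. POLE, the catalytic subunit of polymerase epsilon on the leading strand, stood at 153.0 in mock, 334.3 with *E. coli* MVs and 431.1 after *V. cholerae* MVs. The 3 libraries were separate by counting error in each comparison: log2 1.13 (0.71 to 1.57), 1.49 (1.09 to 1.93) and, between the vesicles, 0.37 (0.17 to 0.56). The peak was of similar width throughout, at 2037, 2237 and 2259 bp, so that the level per 1000 bp went from 75.1 to 149.4 and 190.8.

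Its partner subunit POLE2 stood at 135.7, 219.4 and 230.6 and was also over 1.5-fold higher with both vesicles. The subunits of polymerase delta, the lagging-strand enzyme, were nearer to mock. POLD2, the lowest of the group for *V. cholerae* MVs, stood at 389.7, 451.2 and 448.1 (log2 0.20, interval -0.07 to 0.48), and POLD3 at 560.1, 694.4 and 746.3. The POLD3 value joins the peak over its representative start site, with 438.8, 513.9 and 508.8, and a separate peak shared with the gene LIPT2, with 121.3, 180.5 and 237.5. At the representative peak alone its log2 ratios were 0.23 (-0.03 to 0.50) and 0.21 (-0.04 to 0.48), both within counting error of mock.

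In the clamp and its loader, RFC2, a small subunit of the loader, stood at 317.6, 518.6 and 525.7 and was at least 1.5-fold higher with both vesicles (0.71 and 0.73). RFC3, another small subunit, stood at 542.7, 568.9 and 492.6 and was the lowest of the group for *V. cholerae* MVs, at -0.14 (-0.38 to 0.10). Its peaks and those of RFC4 were narrower than mock in both MV libraries.

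PCNA, the clamp, had the highest summed level of the members in both MV libraries, at 880.5 in mock, 1123.7 with *E. coli* MVs and 1119.0 after *V. cholerae* MVs, but this sum joins 2 peaks. The peak over the start site of its representative transcript (chr20:5098312-5101577 in mock) held 646.7, 720.0 and 651.7. The second peak (chr20:5106581-5109064 in mock), near a distal PCNA start site and shared with the gene CDS2 on the opposite strand, held 233.8, 403.7 and 467.3. The larger part of the difference from mock in the sum thus lay in the shared peak, and at the representative peak alone PCNA was within counting error of mock, at 0.15 (-0.06 to 0.38) and 0.01 (-0.20 to 0.23).

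LIG1, the ligase that joins Okazaki fragments, stood at 297.4, 438.8 and 461.2 (log2 0.56 and 0.63), and 10.8 of the *V. cholerae* value came from a separate 633 bp peak not called in the other libraries. FEN1, the flap nuclease that trims the fragments, stood at 713.1, 826.3 and 785.4 (0.21 and 0.14). Of the RPA genes, RPA1, the largest subunit, stood at 378.2, 543.3 and 593.3 and had the highest ratio of the 3 with *V. cholerae* MVs (0.65, interval 0.38 to 0.93). RPA3, the smallest subunit, stood at 666.9, 803.5 and 702.4 and had the lowest (0.07, -0.13 to 0.29), and its peak lies at an alternative start site and not at that of its representative transcript.

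The width of the called peaks also differed between libraries. The median width of the members was 2296 bp in mock, 2498 bp with *E. coli* MVs and 2422 bp after *V. cholerae* MVs, against 2372, 2821 and 2836 bp over all genes, and 37 and 36 of 41 members (90.2% and 87.8%) were wider than mock, where 87.5% and 86.2% of all genes were. Width and level did not always go together: MCM3 and ORC1 were wider than mock but lower with *V. cholerae* MVs, and RFC3 was narrower with *E. coli* MVs at a log2 ratio of 0.07. The level per 1000 bp of called peak had a median of 165.9, 181.8 and 182.7, and the median log2 ratio on that scale was 0.19 with *E. coli* MVs and 0.13 after *V. cholerae* MVs. On this scale 33 members (80.5%) were above mock with *E. coli* MVs and 28 (68.3%) after *V. cholerae* MVs, where 76.6% and 78.2% of all genes were. The order of the genes by level per 1000 bp in mock ran from GINS2 (69.4) and POLE (75.1) to ORC1 (316.1) and RPA2 (323.3), a range that was narrower with *V. cholerae* MVs, where GINS2 stood at 110.5, POLE at 190.8, ORC1 at 246.8 and RPA2 at 268.0.

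**Figure D3:**
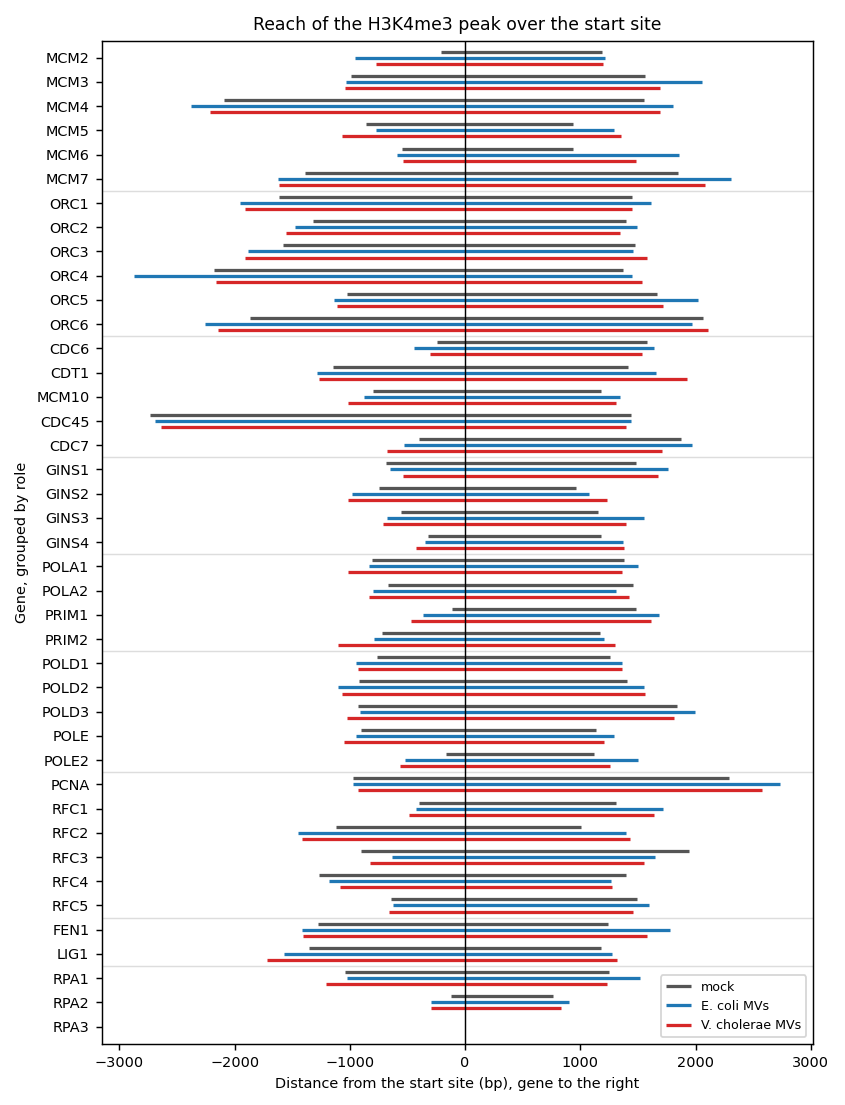
Distance in bp that the H3K4me3 peak over the representative start site reached to either side in each library, drawn with the gene to the right of 0, for 40 of the 41 genes (at RPA3 no peak covers that site). The median reach upstream was 902 bp in mock, 950 bp with *E. coli* MVs and 1032.5 bp after *V. cholerae* MVs.

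The extra width lay on both sides of the start site. Over 40 members the median reach into the gene was 1399 bp in mock, 1537 bp with *E. coli* MVs and 1452.5 bp after *V. cholerae* MVs. With *E. coli* MVs the peak reached farther than mock upstream at 31 members (77.5%) and downstream at 34 (85.0%), where 76.5% and 79.1% of all genes did. With *V. cholerae* MVs it did at 33 (82.5%) and 28 (70.0%), where 77.1% of all genes did on either side.

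The ratio of a member followed the GC content of its peak. Across the 41 members, Spearman's rho between the GC content of the mock peaks and the log2 ratio was 0.71 for *E. coli* MVs and 0.76 after *V. cholerae* MVs over mock, and 0.68 between the vesicles (Pearson's r 0.76, 0.84 and 0.77). Over all 12070 genes rho was 0.72, 0.83 and 0.75. These are descriptions across genes of the same libraries, which share base composition and depth, and genes are not replicates.

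The members' peaks had a median GC content of 52.4%, against 54.9% over all genes, and when all genes were split into 4 bins of equal size by GC content, the bins from low to high held 15, 13, 10 and 3 members. The median log2 ratio of the members with *V. cholerae* MVs was, through these bins, 0.07, 0.27, 0.64 and 1.07, and that of all genes 0.13, 0.46, 0.79 and 1.29. With *E. coli* MVs the values were 0.21, 0.31, 0.55 and 0.83 for members and 0.23, 0.41, 0.61 and 0.95 for all genes. Within each bin the members thus stayed below all genes in both comparisons. On the scale of tags per 1000 bp this held in all 4 bins for *V. cholerae* MVs, while for *E. coli* MVs the members were higher in the lowest bin (0.11 against 0.07) and in the highest (0.55 against 0.45).

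**Figure D4:**
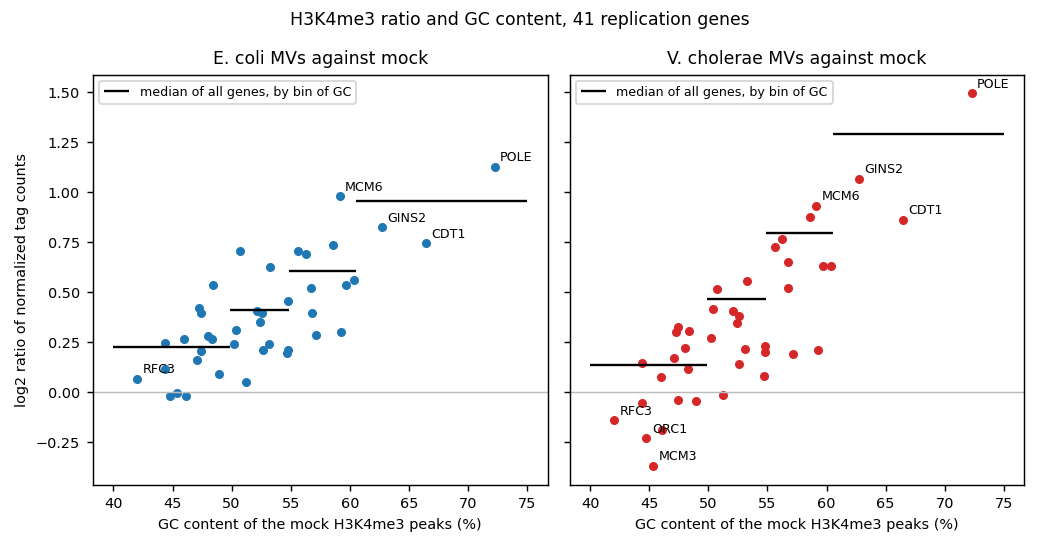
Log2 ratio of H3K4me3 over mock against the GC content (%) of the mock peaks for the 41 genes, with black lines at the median of all genes in each bin of GC content (drawn between 40% and 75%). The points lie higher to the right in both panels, with RFC3 at 42.0% GC and POLE at 72.3% GC at the ends.

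The same held by level. In 4 such bins by mean H3K4me3 level, the members' median log2 ratio with *V. cholerae* MVs was 0.45, 0.31, 0.21 and 0.18, and that of all genes 1.04, 0.73, 0.53 and 0.37. With *E. coli* MVs the members' medians were 0.40, 0.53, 0.25 and 0.29, and those of all genes 0.72, 0.59, 0.47 and 0.36. The mean level includes the mock value that is also in the ratio.

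Some of these genes share their promoter. In 18 of 41 members (43.9%, against 33.4% of all genes with a peak in all 3 libraries) a peak also lay within 1000 bp of a start site of another protein-coding gene, and tags there cannot be assigned to either gene. At 11 members (26.8%, against 14.8% of all genes with a peak in all 3 libraries) another gene began within 1000 bp on the opposite strand and ran away from it. These pairs are MCM4 with PRKDC, MCM7 with AP4M1, ORC1 with PRPF38A, ORC3 with RARS2, ORC4 with MBD5, ORC6 with VPS35, CDC45 with UFD1, POLE with PXMP2, FEN1 with TMEM258, LIG1 with ZSWIM9 and RPA1 with SMYD4. The median log2 ratio of these 11 was 0.41 with *E. coli* MVs and 0.33 after *V. cholerae* MVs, and that of the other 30 was 0.29 and 0.25. Without the 18 members that share a peak the medians were 0.28 and 0.22.

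In the 280 bases around the representative start site, an E2F word was found in 20 of 41 members (48.8%), against 4.17% of all 20090 genes and 5.45% of the 12070 with H3K4me3 peaks. All 6 of MCM2 to MCM7 held one, and of the ORC genes ORC3 did. The others were CDC6, CDT1, GINS1, GINS2, GINS3, POLA1, POLA2, POLD1, POLD3, POLE, POLE2, RFC3 and LIG1. A match to these letters is not a measurement of binding. At RPA3 these 280 bases (32.9% GC) are not where its H3K4me3 peak lies, and it is counted among the 21 members without an E2F word.

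CCAAT was found in 24 members (58.5%, against 35.4% of all genes), GGGCGG, the word bound by Sp1, in 28 (68.3% against 60.1%), and CCGGAAG, a word of ETS factors, in 7 (17.1% against 13.7%). TATAAA was found in 2, GINS3 and POLD3 (4.88% against 9.65%), and TTTGAA, a word found in promoters of late cell-cycle genes, in none (11.2% of all genes). All 41 members had H3K4me3 peaks, and of the 12070 genes with such peaks 36.0% held the NF-Y word and 74.5% the Sp1 word. The ETS word was found in 20.3% of these genes and the late cell-cycle word in 8.43%. The word seen in only GINS3 and POLD3 among the members was found in 4.95%. Against these genes the members' shares were a little lower for the Sp1 and ETS words and about level for that last word. With 41 members such gaps rest on few genes and were not tested. The 20 members with an E2F word had a median ratio of 0.50 (log2) with *E. coli* MVs and 0.46 after *V. cholerae* MVs, and the 21 without had 0.27 and 0.20. Their mock peaks also differed in GC content, with medians of 55.5% and 48.9%, and the part of either feature in the ratio was not tested.

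Other genes of replication, a list of 50 not chosen by how they moved but made with earlier results known, give the setting. All 50 had an H3K4me3 peak in each library, with median log2 ratios over mock of 0.44 for both vesicles, and 15 (*E. coli* MVs) and 17 (*V. cholerae* MVs) were at least 1.5-fold higher. Those that stood out at the top for *V. cholerae* MVs were CCNE1, the cyclin that drives entry into S phase (17.3, 153.9 and 167.5, with 6 tags in mock), and RECQL4, a helicase of replication initiation (346.4, 608.8 and 1544.8). RECQL4 differed between the vesicles by a log2 ratio of 1.34 (1.21 to 1.47). At the bottom were WDHD1, a fork protein that ties polymerase alpha to the helicase (892.1, 925.1 and 679.4), and MTBP, a factor of origin firing (915.2, 990.7 and 769.3), both below mock by counting error with *V. cholerae* MVs.

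The FAIRE libraries differed more from each other than the H3K4me3 libraries did, and the library of *E. coli* MVs stood apart. They held 14474665 (mock), 7888670 (*E. coli* MVs) and 12077180 (*V. cholerae* MVs) tags, of which 7.12%, 37.3% and 13.9% lay in peaks, and their peaks covered 39.2, 98.2 and 55.7 Mb. Of the 10 markers of gut epithelium 8, 10 and 10 had a FAIRE peak, with summed levels of 137.5, 2606.2 and 951, and of the 6 blood markers 1, 3 and 1 did. Start sites of genes of other cell types also had FAIRE peaks, 5, 6 and 4 of 8 markers, with summed levels of 127.1, 527.3 and 116.0. The part of these differences between libraries in the values below was not tested, and values of *V. cholerae* MVs over mock do not use the library that stood apart.

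A FAIRE peak was called at 19 of 41 members in mock, 40 with *E. coli* MVs and 36 after *V. cholerae* MVs, where 41.7%, 77.8% and 62.4% of all genes had one. PRIM2 had none in any library. With *V. cholerae* MVs GINS3, POLE2, PRIM1 and RFC1 also had none. A missing peak means that the region did not pass the caller's threshold, not that its signal was 0.

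**Figure D5:**
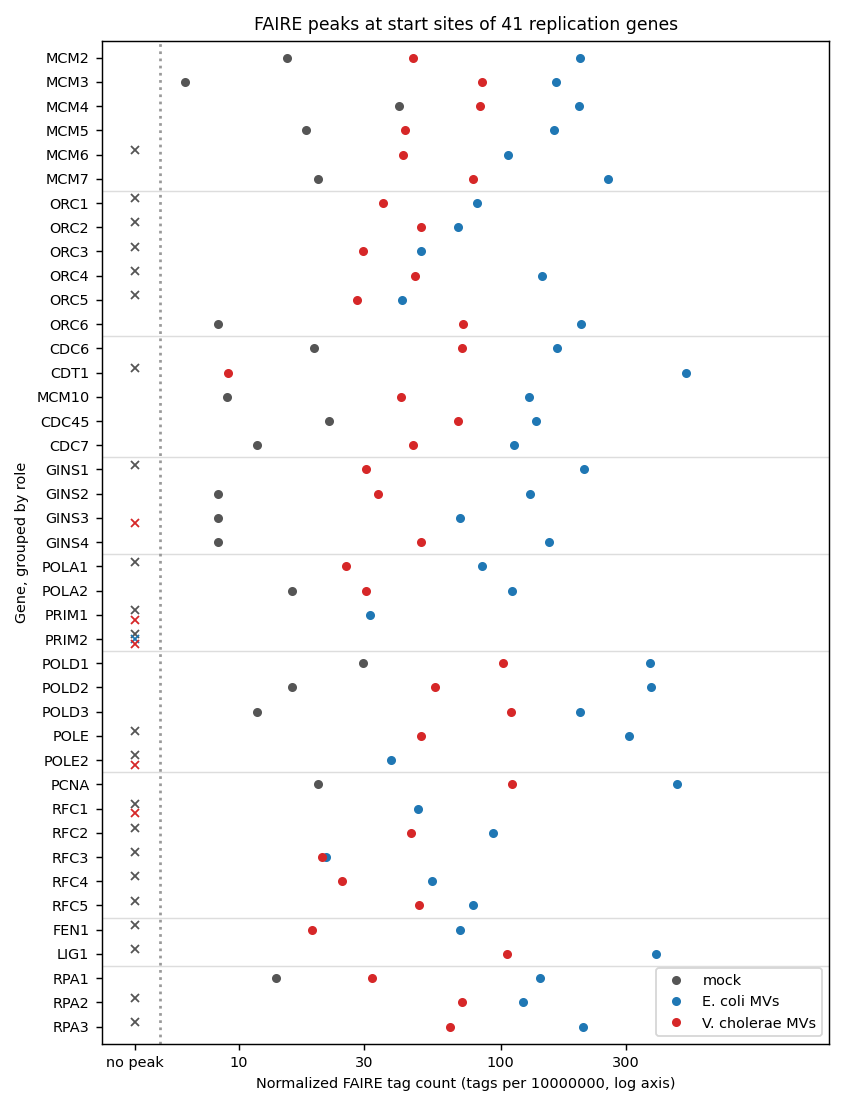
Normalized FAIRE tag count (tags per 10000000, log axis) of each gene in the 3 libraries, with a cross in the column marked no peak where none was called. Where peaks were called in all 3 libraries, the order is mock, *V. cholerae* MVs, *E. coli* MVs, and 22 genes have a cross for mock.

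In the 18 members with a FAIRE peak in all 3 libraries, the level ran from 6.22 to 40.8 with a median of 15.5 in mock, from 110.3 to 471.6 with a median of 162.9 after *E. coli* MVs, and from 30.6 to 110.1 with a median of 62.5 after *V. cholerae* MVs. The ranges of mock and *E. coli* MVs did not overlap over these 18, while over all genes they did, at 6.22 to 119.4 and 10.1 to 2232.4. A range widens with the number of genes, so this difference cannot be read as a trait of the members. Both MV libraries were at least 1.5-fold above mock in all 18, where 98.2% (*E. coli* MVs) and 76.0% (*V. cholerae* MVs) of the 6956 genes measured this way were, and 0.230% and 4.51% were lower by as much. *V. cholerae* MVs were at least 1.5-fold below *E. coli* MVs in all 18 (93.0% of all genes, with 0.604% above). The median log2 ratios were 3.70, 1.93 and -1.67, against 3.15, 1.40 and -1.65 over all genes. These 18 are the members whose weak mock signal passed the threshold, so their counts say nothing of the other 23.

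The called peaks also differed in width and place, and the part of either in these ratios was not tested. Per 1000 bp of called peak the medians were 1.74, 0.88 and -0.996. A peak covered the representative start site at 6 of 41 members in mock (14.6%, against 11.6% of all genes), at 39 with *E. coli* MVs (95.1% against 65.6%) and at 33 with *V. cholerae* MVs (80.5% against 41.6%), so that the order of the libraries was the same over all genes. Of the 18, a mock peak shared at least 1 bp with a peak of *E. coli* MVs at 11 and with one of *V. cholerae* MVs at 12. The other ratios thus set different places of a gene against each other. With only overlapping peaks counted, the medians over mock were 3.39 (*E. coli* MVs, 11 members) and 1.77 (*V. cholerae* MVs, 12 members). Members with an overlap can also mix places, since a level sums all peaks of a gene. At PCNA the mock level of 20 was 1 peak, while the 471.6 with *E. coli* MVs joined 2, of 295.4 (overlapping the mock peak) and 176.2.

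MCM3 is such a case. Its FAIRE level was 6.22 for mock, 162.3 with *E. coli* MVs and 84.5 after *V. cholerae* MVs, but the mock peak of 9 tags (chr6:52143865-52144365) lay at an internal start site, while the MV peaks lay over the promoter printed above. ORC1 had no mock peak and stood at 81.1 and 35.6. MCM3 and ORC1, both below mock in H3K4me3 with *V. cholerae* MVs, thus had a FAIRE peak at their promoter in that library and no mock FAIRE peak there.

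Of the genes with the highest H3K4me3 ratios, GINS2 had FAIRE levels of 8.29, 129.3 and 33.9, and its mock peak of 12 tags lay upstream of the MV peaks without touching them. POLE had no mock peak and stood at 309.1 with *E. coli* MVs and 49.7 after *V. cholerae* MVs. Of these, the peak at its promoter held 155.9 and 37.3, and the rest lay at 7 and 1 further peaks at start sites inside the gene. CDT1 had the highest FAIRE level of the 41 genes, 512.1 with *E. coli* MVs, and 9.11 (11 tags) with *V. cholerae* MVs. The *E. coli* value was a single peak of 10525 bp that covered the whole gene and ran beyond its end, at 48.7 per 1000 bp. It is thus not a level of the promoter alone. CDT1 also had no mock FAIRE peak, and its H3K4me3 level differed between the vesicles by a log2 ratio of 0.12 (-0.06 to 0.30).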

How the data were processed

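ChIP and FAIRE sequencing of 6 libraries were used, grouped by their labels and, where a label does not name the assay, by the study's methods. The authors aligned reads to hg19 and called peaks per library with HOMER against an input. HOMER 4.7.2, SAMtools 1.3.1 and Bowtie 1.1.2 are listed in the submitters' processing notes, but the methods give Bowtie 2, MACS and HOMER. Per the file headers, peaks had to be 4-fold over input with a Poisson p of 0.0001. The deposited signal is a normalized tag count per 10000000 tags, beside the authors' ratio (fold over input), used only as a filter, and the peak length.

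Multiplying by the library total gave whole tags back, within 0.0721 of a whole number. Peaks were summed per gene (GENCODE release 44 on GRCh37, the same build), and a gene's ratio is given where both libraries have a peak, with medians over genes with a peak in all 3. Intervals of ratios are exact 95% binomial (Clopper-Pearson) intervals and cover counting error only, since PCR copies are not independent molecules. Above or below by counting error means that this interval leaves out 0. Python 3.11.15, pandas 2.3.3, NumPy 2.4.6, SciPy 1.17.1, pysam 0.24.0 and matplotlib 3.10.9 were used, and the calculation was tested on simulated counts of tags. The members and the gene lists were chosen with earlier results of these data known. Named in full are the highest and the lowest member of each role group by *V. cholerae* MVs over mock, with other members by role, and of the other replication genes the 2 highest and the 2 lowest. Alternatives changed the peak threshold, window, start sites, scaling, value of a gene, overlap and members counted.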

Additional observations from a re-analysis of the deposited data

How the results depend on the processing

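No paired analysis was possible because there is just 1 library for each treatment in an assay. A median was counted as moved when it changed by more than the median width, to one side, of the members' counting intervals, and a single gene when it changed by more than that of its own. The H3K4me3 medians over mock kept their direction under the other peak threshold, windows, start sites, overlaps, members counted and tags per 1000 bp, and turned below 0 under both scalings. Scaled to tags in peaks they were -0.17 (*E. coli* MVs) and -0.27 (*V. cholerae* MVs), and relative to all genes -0.21 and -0.36. The median of *V. cholerae* over *E. coli* MVs stayed between -0.17 and -0.01. For FAIRE over mock, scaling to tags in peaks gave 1.31 and 0.96, the ratio relative to all genes 0.55 and 0.53, and tags per 1000 bp 1.74 and 0.88. Peaks overlapping by 50% gave 2.63 for *E. coli* MVs (4 members). Between the vesicles these settings gave -0.24, -0.015 and -0.996, and peaks at least 8-fold over input gave -2.69 (2 members). Single members were followed only where their ratio was at least 1.5-fold either way, which leaves out every H3K4me3 ratio between the vesicles. Of 546 such values, 516 kept their direction. Relative to all genes 19 of 73 turned, and scaled to tags in peaks 8 of 73 did.

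Relative to all genes, H3K4me3 with *V. cholerae* MVs turned to -0.0067 at MCM7 and -0.0027 at LIG1. In FAIRE with *E. coli* MVs the same setting gave -0.86 at MCM4, -0.066 at CDC6, -0.52 at CDC45 and -0.35 at POLA2, and with *V. cholerae* MVs -0.36 at MCM4, -0.14 at MCM5, -0.45 at POLA2 and -0.17 at RPA1. Between the vesicles it gave 0.71 at MCM3, 0.40 at MCM4, 0.16 at ORC6, 0.45 at CDC6, 0.023 at MCM10, 0.66 at CDC45, 0.37 at CDC7, 0.026 at GINS4 and 0.77 at POLD3. Scaled to tags in peaks, FAIRE turned to -0.10 at MCM4 (*E. coli* MVs) and -0.022 at POLA2 (*V. cholerae* MVs), and between the vesicles to 0.48 at MCM3, 0.17 at MCM4, 0.22 at CDC6, 0.43 at CDC45, 0.14 at CDC7 and 0.54 at POLD3. Peaks overlapping by 50% gave -0.12 at MCM4 (*E. coli* MVs) and 0.61 at MCM2 between the vesicles, and peaks 8-fold over input gave -1.17 at MCM4 (*V. cholerae* MVs). The scalings shift every gene by a constant, and for the other settings the cause was not tested. With 1 library per treatment, the spread between cultures is unknown, and the mock libraries, the shallowest in H3K4me3 and the one with the fewest tags in peaks in FAIRE, limit each ratio over mock.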

Other observations

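The H3K4me3 ratios of the other replication genes over mock are given here by role. The 8 genes of S phase control (E2F1 to E2F3, CCNE1, CCNE2, CCNA2, CDK2 and CDC25A) had median log2 ratios of 0.79 with *E. coli* MVs and 0.94 after *V. cholerae* MVs, and 6 of 8 were at least 1.5-fold higher in each. The 8 genes of nucleotide supply, such as RRM2 of ribonucleotide reductase and the thymidine kinase TK1, had 0.43 and 0.37, and none reached 1.5-fold. The 8 genes of chromatin behind the fork, such as the histone chaperone subunit CHAF1A and the maintenance methyltransferase DNMT1, had 0.54 and 0.59, with 3 and 4 at 1.5-fold. The 26 factors of firing and of the fork had 0.35 and 0.34, with 6 and 7. These values are descriptions of 3 libraries, beside backgrounds of 42.6% and 53.5% of all genes at 1.5-fold.

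RECQL4 was the one of the 50 genes at least 1.5-fold higher with *V. cholerae* than with *E. coli* MVs in H3K4me3. Its FAIRE level was 590.7 with *E. coli* MVs, 21.5 with *V. cholerae* MVs and 38.7 in mock. A FAIRE level at least 1.5-fold lower with *V. cholerae* than with *E. coli* MVs was found in 93.0% of all genes, so that order is not particular to RECQL4.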
